A study of Mus musculus with 15 samples.

Results

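The vehicle control of an inhibitor study in cartilage cells was described on its own, without any treatment contrast. It consists of the arrays titled DMSO, replicates 1, 2 and 3, which are 3 of the 15 arrays of the series. The cells were primary chondrocytes of CD1 mice at embryonic day 15.5, with no mutation or transgene named, dissociated from cartilage of the hind limbs according to the series text and of the long bones according to the methods, and plated in monolayer. They were kept with DMSO, the solvent of the inhibitors, for 24 h according to the sample labels and the methods, whereas the series text gives 2 h. The methods give 3 independent experiments, and how many embryos stand behind each is not given in the sources used here. The remaining 12 arrays carry the same cells with LY (LY294002, a PI3K inhibitor), UO126 (a MEK inhibitor), TSA (trichostatin A, a histone deacetylase inhibitor) or SB90 (SB202190, a p38 inhibitor), 3 arrays each. They served only to ask whether genes that differed between the DMSO arrays also differed with the replicate number there.

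Total RNA was hybridised to Affymetrix mouse arrays, and each probe set has 1 deposited log2 signal in each array. Of the probe sets annotated to a gene alone, the brightest one by its DMSO mean stood for that gene, which gave 18193 genes. Signals rank probe sets and not amounts of transcript, since probe sets differ in how well they bind. As a gauge of background, 75 genes of odorant, vomeronasal and taste receptors, which cartilage is not known to use, had means between 3.41 and 9.20 with a median of 6.11. Their 95th percentile, 8.09, was taken as the background level. Of the 18193 genes 8577, or 47.1%, had a mean above it, and 8169 were above it in all 3 arrays. Genes had 1.92 probe sets on average, whereas the receptor genes had 1.11, so that the choice of the highest probe set raised genes at large more than the gauge.

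Chondrocytes lay down cartilage as a network of type II collagen fibrils with minor collagens IX and XI, filled with aggrecan held on hyaluronan. In the growth plate they pass from resting and proliferating cells to hypertrophic cells, which switch on type X collagen and ready the matrix for mineral and for replacement by bone. The transcription factor Sox9, with Sox5 and Sox6, drives the collagen II and aggrecan genes, and in flat culture chondrocytes are known to drift toward a fibroblast-like state with type I collagen.

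Col2a1, the gene of the type II collagen chain, had the highest signal of all 18193 genes, read by a single probe set. Its log2 signals were 14.36, 14.29 and 14.30 in DMSO replicates 1, 2 and 3, a mean of 14.32 ± 0.04 (SD, n = 3). The 3 arrays thus lay within 0.07 of each other on the log2 scale, and each value was the highest of its array. Whether the probe set could still report differences at such a signal was not tested. Acan, which encodes the aggrecan core protein, had 12.26, 12.21 and 12.48 and ranked 272nd, above 98.5% of genes. Sox9 had 10.71, 10.56 and 10.83 and ranked 1683rd, above 90.7% of genes. A second probe set of Sox9 was nearly as bright, with a mean of 10.60, while the last of its 3 stood at 6.22, below background. All 16 chondrocyte markers looked at were above background in each of the 3 arrays, and 13 of them were in the highest 10% of genes, which began at a mean of 10.61. The defining markers of the labelled cell type were thus all present.

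**Figure D1:**
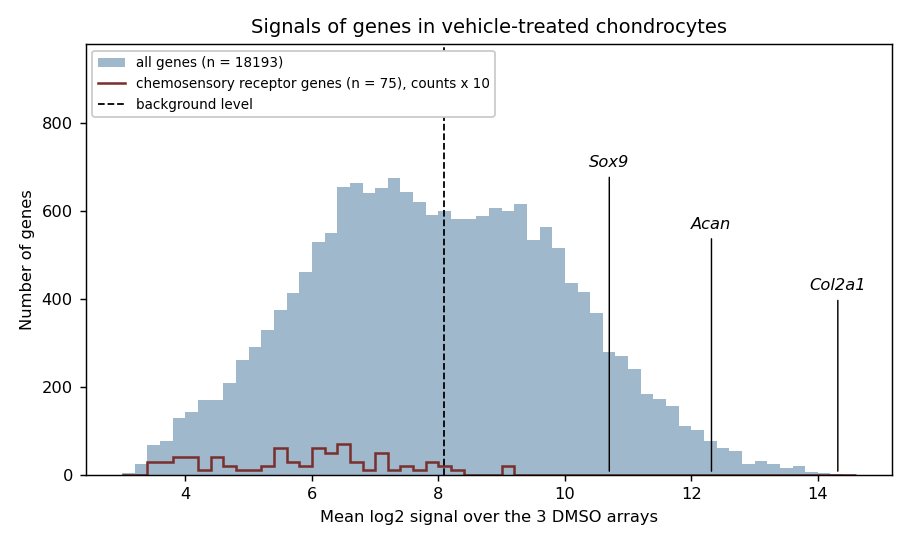
The bars count the 18193 genes by their mean log2 signal over the 3 DMSO arrays, the outlined steps count the 75 chemosensory receptor genes multiplied by 10, and the dashed line is the background level of 8.09. Sox9, Acan and Col2a1 stand at 10.70, 12.32 and 14.32, to the right of the main mass of genes.

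All 7 cartilage collagens were above background, against 47.1% of all genes, and 6 were in the highest 10%, with a median of 12.25 against 7.92 over all genes. Col9a1, a chain of the collagen on the surface of the fibrils, had 13.50, 13.32 and 13.29, and Col11a1, a chain of the collagen in their core, had 13.42, 13.21 and 13.11. Both were thus among the 100 highest genes. Col27a1, a fibrillar collagen of cartilage, was the steadiest of the list at 11.34, 11.36 and 11.37. Col11a2 had 11.36, 11.71 and 11.88, the widest range of the 7, and was lowest in replicate 1. Col9a2 was the lowest member, with 9.24, 9.31 and 9.52 from a single probe set, although its protein forms a trimer with the chains of Col9a1 and Col9a3.

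Of 20 measured genes of cartilage proteoglycans and other matrix proteins, 18 were above background and 9 in the highest 10%, with a median of 10.45. The highest was Cnmd, chondromodulin, an inhibitor of vessel growth in cartilage, with a mean of 13.03. Matn3, a matrilin that bridges collagen fibrils, had 12.33, 12.33 and 12.53. Hapln1, the link protein that fastens aggrecan to hyaluronan, had 12.17, 12.07 and 12.09. The 3 arrays of each of these genes lay within 0.5 of each other. Comp, Cytl1, Scrg1 and Matn1 had means between 11.51 and 12.06. At the low end, Chad and Cilp2 had means of 8.60 and 8.18, just above background, and Vit and Cilp had 5.65 and 5.38, below it. Cilp, the cartilage intermediate layer protein, is known from mature articular cartilage.

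The small leucine-rich proteoglycans, which coat collagen fibrils, were above background in 10 of 11 cases, with 7 in the highest 10% and a median of 11.16. Bgn (biglycan) had 13.19, 13.05 and 12.80, and Lum (lumican) had 12.64, 12.45 and 12.30. In both, replicate 1 was highest and replicate 3 lowest. Epyc (epiphycan), found mostly in epiphyseal cartilage, had a mean of 12.26, Ogn of 12.09, Dcn (decorin) of 11.64, Prelp of 11.16 and Fmod of 11.02. Kera (keratocan), the corneal member, was the only one below background, at 6.27.

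**Figure D2:**
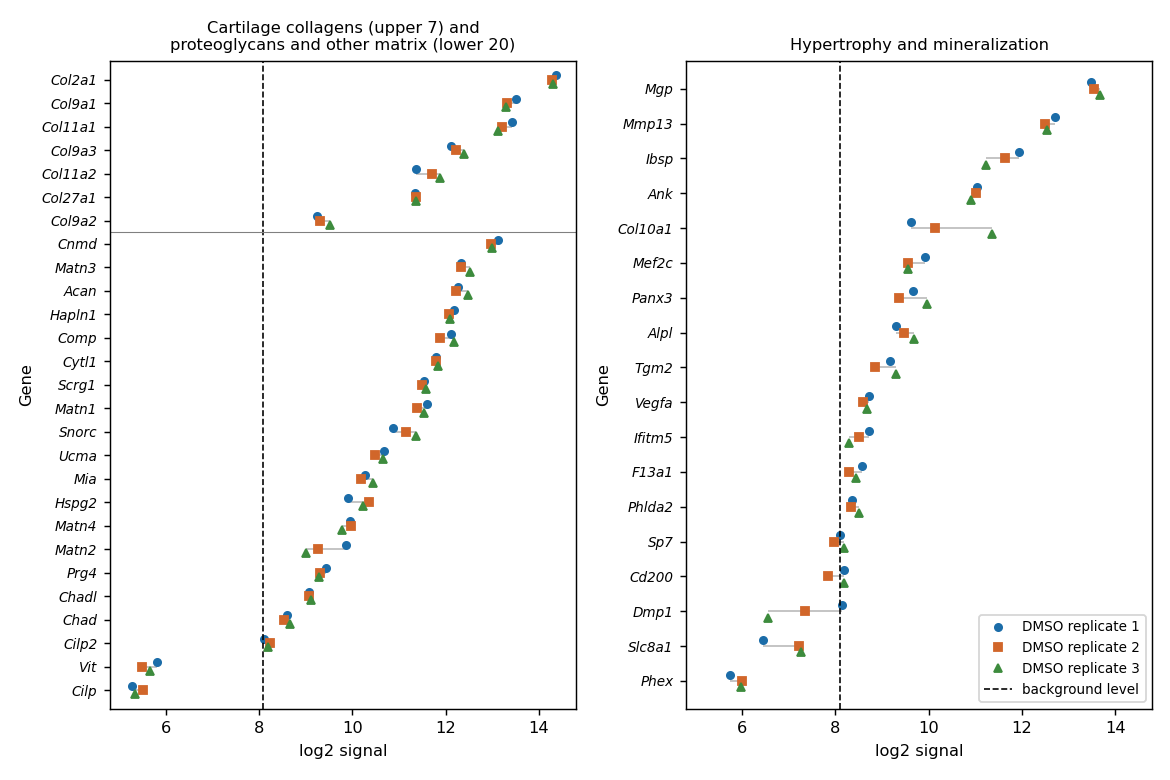
Each row is a gene and each symbol the log2 signal of 1 DMSO array, with the dashed line at the background level of 8.09, for cartilage collagens and other cartilage matrix genes at left and hypertrophy and mineralization genes at right. Most rows span less than 0.5, while Col10a1 spans 1.73 with replicate 3 at 11.36.

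Genes of the machinery that makes this matrix were high as a group. All 32 measured genes of collagen modification and the secretory pathway were above background, 20 were in the highest 10% and the median was 11.63. Serpinh1, the collagen chaperone of the endoplasmic reticulum, had 13.42, 13.31 and 13.22. P4hb, the shared subunit of prolyl hydroxylase, Hspa5 (BiP) and Ppib (cyclophilin B) had means of 13.13, 13.13 and 13.07, and Lox, which crosslinks collagen, had 12.90. For glycosaminoglycan synthesis and sulfation, 23 of 31 genes were above background and 11 in the highest 10%. Ugdh, which makes UDP-glucuronate, had 12.47, 12.19 and 12.16, and Papss2, the synthase of the sulfate donor whose loss gives mice short limbs, had 12.38, 12.22 and 12.19. Chsy1, which extends chondroitin chains, had a mean of 11.36, whereas Has3 and Chst13 were below background at 6.74 and 6.39.

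Beside the cartilage matrix, genes of fibroblasts and perichondrium were high as well. Of 29 measured, 27 were above background and 20 in the highest 10%, with a median of 12.31. Col1a2 had 13.80, 13.68 and 13.58 and Col1a1 had 13.71, 13.64 and 13.44, the chains of type I collagen. Sparc, Fn1 and Vim, which encode osteonectin, fibronectin and vimentin, had means of 13.72, 13.70 and 13.64, followed by Col3a1 at 13.28 and Col5a2 at 13.21. Thy1, a surface marker of fibroblasts, was at 9.25, and Dpt and Col14a1 were below background at 7.83 and 7.95. In total RNA of a whole culture, fibroblast-like cells beside chondrocytes and expression of these genes by chondrocytes cannot be told apart.

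**Figure D3:**
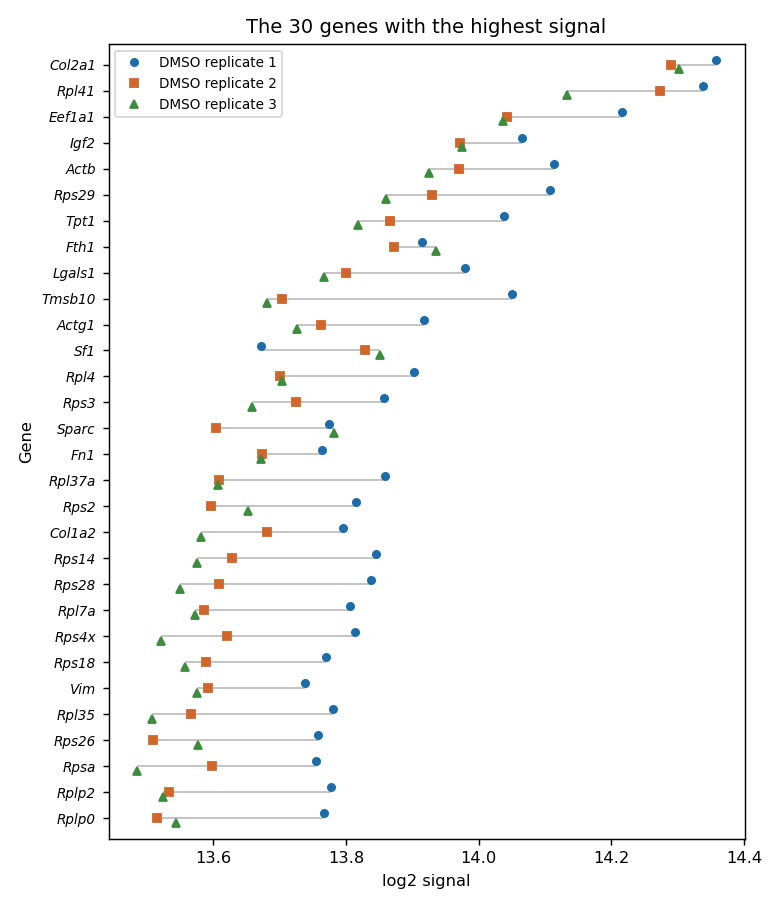
The 30 genes with the highest mean run down the page in order, and each symbol is the log2 signal of 1 DMSO array. Col2a1 stands first at 14.32, and replicate 1 is the highest array in 27 of the 30 rows.

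The 30 genes with the highest signals were mostly those that any growing cell uses. Genes of cytosolic ribosomal proteins held 16 of the 30 places, led by Rpl41 with 14.34, 14.27 and 14.13. Eef1a1, the translation elongation factor, ranked 3rd at 14.10, and Tpt1 ranked 7th at 13.91. Actb and Actg1, the cytoplasmic actins, Tmsb10, which binds actin monomers, and Lgals1 (galectin 1) had means of 14.00, 13.80, 13.81 and 13.85. Fth1, the ferritin heavy chain, had 13.91. The cartilage and connective tissue genes among the 30 were Col2a1, Sparc, Fn1, Col1a2 and Vim. Igf2, the fetal insulin-like growth factor, ranked 4th, with 14.07, 13.97 and 13.97. The splicing factor gene Sf1 ranked 12th through 1 of its 5 probe sets, of which the next had a mean of 12.90 and another 8.64, so that its place rests on the choice of probe set. Of the 30 genes, 21 had several probe sets. In 14 of these the second brightest lay within 1 log2 unit, and in 7 it lay more than 4 units below, Igf2 (9.73), Actb (8.98), Tpt1 (6.44) and Rpsa (5.20) among them.

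Among lists of general cell functions, all 23 translation factors were in the highest 10%, as were 31 of 33 genes of the actin and microtubule cytoskeleton, 37 of 39 of oxidative phosphorylation and 36 of 44 of cytosolic ribosomal proteins. Uqcrb, Atp5g3 and Atp5a1, of the respiratory chain and ATP synthase, had means of 13.46, 13.23 and 13.19. Glycolysis and hypoxia genes were above background in 21 of 24 cases but in the highest 10% in 7. These were led by Pgk1 at 13.05 and Ldha at 12.87, and Hif1a, the oxygen-sensitive transcription factor on which growth plate chondrocytes depend, had a mean of 12.10. Car9, a classical hypoxia target, was below background at 7.16. Rps16 and Cox7c were at 4.48 and 5.66, whereas the medians of their lists were 13.46 and 11.91.

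Of 40 cell cycle genes 37 were above background and 18 in the highest 10%. Cdkn1c, an inhibitor of proliferation needed for chondrocyte hypertrophy, was the highest, with 12.88, 12.77 and 12.32. Pcna, the DNA polymerase clamp, had 12.68, 12.42 and 12.35, and Rrm2, which supplies deoxynucleotides, had a mean of 12.12. The D cyclins Ccnd2 and Ccnd1 had 12.22 and 11.73, Cdk4 had 11.86 and Mcm7 of the replication helicase 11.82. Cdkn1a, the p21 inhibitor, was at 11.67 and Cdkn2a was below background at 5.56. Genes of DNA replication and inhibitors of the cycle were thus both among the bright ones in the same arrays.

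**Figure D4:**
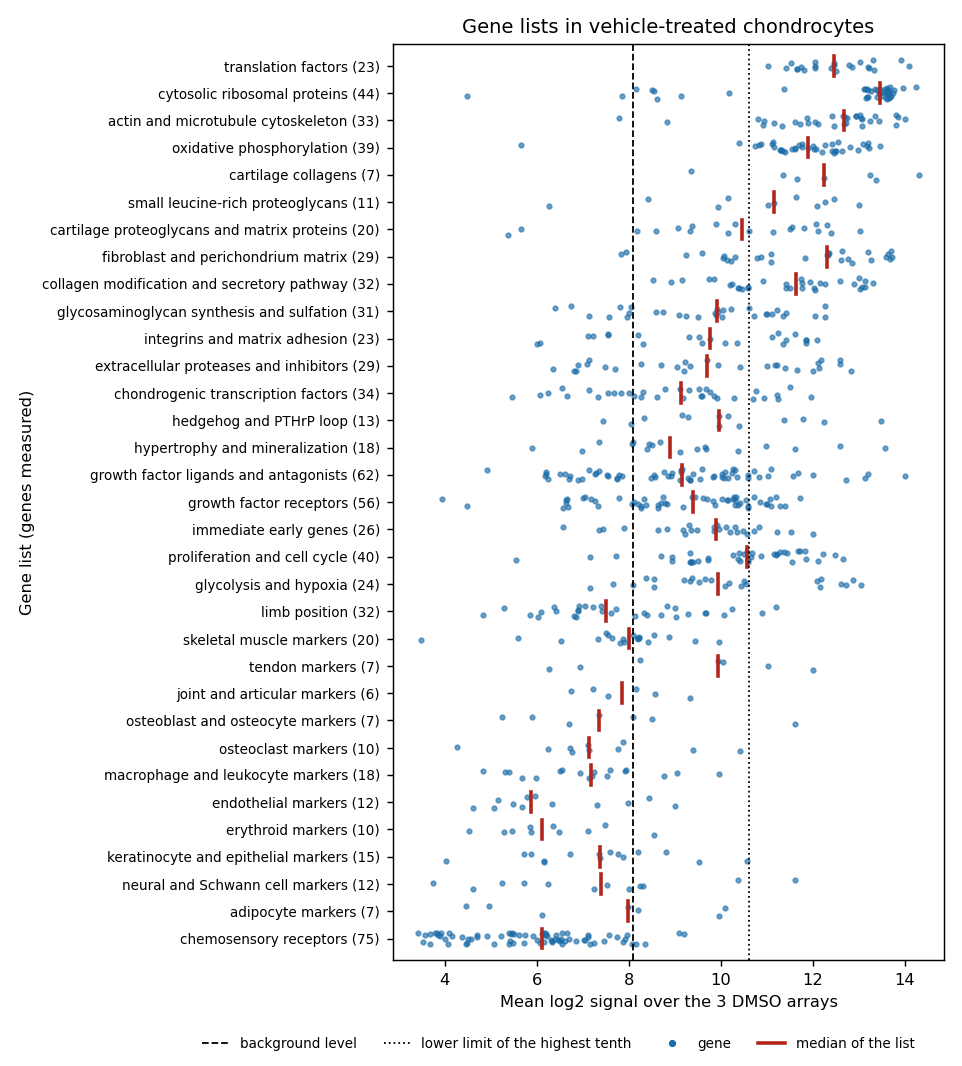
Each dot is the mean log2 signal of a gene over the 3 DMSO arrays, with gene lists down the page, the median of each list as a red bar, the background level of 8.09 dashed and the lower limit of the highest 10%, 10.61, dotted. The medians of the cartilage collagen, translation and cytoskeleton lists lie right of the dotted line, and those of leukocyte, endothelial and erythroid lists lie left of the dashed line.

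Of 34 transcription factors of cartilage and limb mesenchyme, 23 were above background and 7 in the highest 10%. Sox4 was the highest at 12.08, 12.03 and 11.81, followed by Prrx1, a factor of early limb mesenchyme, at 11.74, 11.53 and 11.27. Foxc1, Fosl2, Trps1 and Shox2 had means of 11.25, 11.23, 10.94 and 10.77, each with a part in chondrocyte or limb growth. The Sox9 partners Sox6 and Sox5 were dimmer, at 9.94, 9.82 and 9.83 for Sox6 and 9.52, 9.57 and 9.61 for Sox5, and both were above background in every array. Nkx3-2, Msx2, Dlx6 and Sox8 were below background, at 6.54, 6.25, 6.07 and 5.46.

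Position in the limb is carried by T-box, Pitx and Hox genes, and 14 of 32 such genes (43.8%) were above background, a share close to the 47.1% of all genes. Tbx15, a factor of skeletal growth, was the highest at 11.29, 11.16 and 11.13. Pitx1 and Tbx4, known as hind limb factors, had means of 9.02 and 9.03, and Tbx5, the forelimb counterpart, had 9.29. Pitx1 had 8.91, 9.01 and 9.13, Tbx4 had 9.12, 9.02 and 8.94, and Tbx5 had 9.39, 9.31 and 9.17, so that the signals of the hind limb pair did not exceed that of the forelimb gene. Each of the 3 has a second probe set, with means of 8.09 for Pitx1, 8.18 for Tbx4 and 8.04 for Tbx5, all within 0.1 of the background level. Since signals of different probe sets cannot be set against each other as amounts, these arrays do not settle from which limbs the cells came.

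The list held 21 Hox genes. Hoxa9, Hoxa10 and Hoxa11 had means of 10.90, 10.24 and 10.07, while Hoxa13, which marks the future hand and foot, was at 6.10. In the Hoxd cluster, Hoxd8, Hoxd9 and Hoxd10 had 9.66, 9.68 and 8.40, and Hoxd11, Hoxd12 and Hoxd13 were below background at 6.89, 6.02 and 6.90. Hoxc10 and Hoxc6 had 8.83 and 8.34, while Hoxc4, Hoxc5, Hoxc8 and Hoxc9 lay between 6.81 and 7.73. The 5 measured Hoxb genes, Hoxb2, Hoxb4, Hoxb6, Hoxb7 and Hoxb9, were all below background, between 5.29 and 7.42. Of the remaining genes of the list Hand2 and Meis2 were above background, at 8.70 and 8.15, and Meis1, Lmx1b, Tbx3, Tbx2 and En1 were not, with means between 4.84 and 7.61.

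In the hedgehog loop, in which Ihh from prehypertrophic cells sets the pace of the growth plate, 11 of 13 genes were above background. The ligand Ihh itself was below it, with 7.14, 7.34 and 7.81. Its receptor and target Ptch1 had 11.52, 11.28 and 11.29, the signal transducer Smo had 11.70, 11.85 and 11.83, and the coreceptor Gas1 had 12.45, 12.21 and 12.06. Ihh and these genes thus stood on opposite sides of the background level, whereas Shh, another hedgehog ligand, was above it through 1 of its 2 probe sets. Cdon and Boc, further coreceptors, had means of 10.39 and 10.17, and Boc had an SD of 0.0047, among the 10 smallest of the genes above background. Gli3, Gli2 and Gli1, the transcription factors of the pathway, had 9.96, 9.15 and 8.34, and the hedgehog target Hhip lay just below background at 8.05. Pth1r, the receptor that receives the PTHrP signal in the same loop, had 9.84, 9.91 and 10.15.

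Of 62 growth factor ligands and antagonists 41 were above background and 11 in the highest 10%, and of 56 receptors 42 and 10. After Igf2 the highest ligands and modulators were Ccn2, a matricellular protein that cartilage makes, Igfbp4 and Ccn1, at 13.19, 13.15 and 12.73. Ptn (pleiotrophin) had 11.58, 11.10 and 10.62, a range of about 1, with replicate 1 the highest. Fgf2, Egf, and Vegfc were below background, at 4.91, 6.18 and 6.19, as was Nppc, the C-type natriuretic peptide gene. Among receptors, Tgfbr2 was the highest at 11.85, 11.71 and 11.61. Fgfr2 and Fgfr3 had means of 11.39 and 10.99. Fgfr3, which restrains growth plate chondrocytes, was read at 11.19, 10.81 and 10.96, and its second probe set was below background at 7.85. Erbb4, Npr1, Thrb and Esr1 were below background.

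Integrins and matrix adhesion genes were above background in 17 of 23 cases, led by the syndecans Sdc4 and Sdc2 and by Cdh11, a mesenchymal cadherin, at 12.08, 11.86 and 11.86, with Itgb1, the common integrin chain, at 11.86. The hyaluronan receptor Cd44 had 11.35, and Itga4, Itga7, Itgb3 and Itga2 were below background. Of 29 extracellular proteases and inhibitors 21 were above background and 12 in the highest 10%. The inhibitors Timp2, Timp1 and Timp3 had 12.83, 12.59 and 12.18, next to the collagenase Mmp13 at 12.58 and the gelatinase Mmp2 at 11.66, while Mmp3 (stromelysin) was below background at 6.36.

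In the lists of targets and partners of the 4 inhibitors, most measured genes were above background in the vehicle cells. The shares were 72.2% (PI3K and Akt), 100% (MEK and ERK) and 63.6% (p38 and histone deacetylases), against 47.1% of all genes. Not every direct target was above background. In the PI3K and Akt list, which LY addresses, 13 of 18 genes were above background and 2 in the highest 10%. Of the catalytic subunits, Pik3ca had 8.90, 8.67 and 8.71, and Pik3cb and Pik3cg were below background at 6.69 and 6.58. Pik3cd, best known from leukocytes, had 12.46, 12.80 and 13.04, but through 1 of its 6 probe sets, and the other 5 had means between 5.47 and 6.70. The high signal was thus not shared by the other probe sets. Akt1 and Akt2, the kinases downstream, had 11.85 and 10.53, and Pdpk1, which activates them, had 10.02. Pik3r2, Pik3r3 and Pik3r1, the regulatory subunits, had 9.76, 8.62 and 8.46, and Pik3r5 was below background at 6.24. The lipid phosphatases Inppl1 and Inpp5d had 9.70 and 7.45, the second of them below background. Rptor, Tsc2, Mtor and Rictor had 9.18, 9.06, 8.99 and 8.35, and Tsc1 was below background at 7.91.

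In the MEK and ERK list, which UO126 addresses, all 8 measured genes were above background and none was in the highest 10%. The target kinases Map2k2 and Map2k1 had means of 10.36 and 10.10, and their activators Araf and Braf had means of 9.64 and 9.11. Nras, Grb2, Sos1 and Ksr1 had 10.31, 9.47, 8.80 and 8.15, and Ksr1 was below the level in replicate 1, at 7.94. In the p38 list, which SB90 addresses, 7 of 11 were above background by their mean and 6 in all 3 arrays. Mapk14, the alpha form of p38, had 11.05, 10.61 and 10.58, while Mapk13, Mapk12 and Mapk11 lay below background at 8.02, 7.13 and 6.69. The alpha form was thus the single p38 gene above background. Its activators Map2k3 and Map2k6 had 10.89 and 8.13, and its substrates Mapkapk2, Mapkapk5 and Mapkapk3 had 10.84, 9.33 and 8.89, with Atf2 at 10.38 and Rps6ka5 below background at 6.42. Of the 11 histone deacetylases, which TSA addresses, 7 were above background. Hdac2 and Hdac1 were the highest, at 11.64, 11.20 and 11.17 and 11.24, 10.98 and 10.96, followed by Hdac3, Hdac5, Hdac11, Hdac7 and Hdac6 at 9.79, 9.36, 9.33, 9.25 and 9.23. Hdac4, which holds back hypertrophy in growth plate cartilage, had 7.90, 7.75 and 7.84, below background, as were Hdac10, Hdac9 and Hdac8.

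Of 18 genes of hypertrophy and mineralization 13 were above background and 4 in the highest 10%, with a median of 8.89. Mgp, an inhibitor of mineralization, had 13.49, 13.55 and 13.68, and Mmp13, the collagenase of late hypertrophic cells, had 12.71, 12.49 and 12.54. Ibsp, bone sialoprotein, had 11.95, 11.64 and 11.24, with replicate 1 the highest, and Ank, a pyrophosphate transporter, had 11.05, 11.01 and 10.91. Panx3 and Alpl, of late chondrocytes and mineralizing matrix, had means of 9.67 and 9.48. Dmp1, Slc8a1 and Phex were below background on average, and Sp7 at 8.09 and Cd200 at 8.07 fell just short of it. The muscle gene Tnnt3, also at 8.09, just passed.

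Col10a1, type X collagen and the defining gene of hypertrophic cells, had the largest SD of the 8577 genes above background, while Actc1 had a slightly wider range, 1.75 against 1.73. With arrays centred on their medians Col10a1 was 2nd by SD. Its signals were 9.63, 10.13 and 11.36 in replicates 1, 2 and 3, a mean of 10.37 ± 0.89 (SD, n = 3), all from a single probe set. Replicate 3 was 1.73 above replicate 1 on the log2 scale. Mmp13 did not follow it, with replicate 3 between the others, and Ibsp ran the other way, while Panx3 and Alpl were highest in replicate 3, at 9.96 and 9.68.

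The spread between the 3 arrays was small for most genes. Over the 8577 genes above background the median SD was 0.138, in 90.9% the range was under 0.5, and 27 genes (0.315%) differed by at least 1, which is 2-fold, between the highest and the lowest array. The other treatments' arrays had median SDs between 0.0744 (SB90) and 0.139 (LY) over the same genes. The DMSO arrays were thus among the more spread of the 5 sets. Replicate 1 stood apart from the other DMSO arrays. Over the genes above background it correlated with replicates 2 and 3 at r = 0.982 and 0.980, whereas replicates 2 and 3 correlated at 0.991, and the middle 50% of its probe sets spanned 3.02 log2 units against 2.80 and 2.86. It held the highest value for 72.5% of the genes above background, and the lowest for 58 of the 75 receptor genes. After quantile normalization it was highest for 38.3%. The median difference of replicate 1 over replicate 3 was 0.17 over the genes above background. All 23 translation factors and 41 of 44 ribosomal protein genes were highest there, and after quantile normalization 12 of 23 and 23 of 44 were.

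The 20 genes with the largest SD included 6 of skeletal muscle, namely Actc1, Tnnc1, Myl1, Mylpf, Myl4 and Acta1. Actc1, the cardiac actin that embryonic muscle also uses, had 10.85, 9.95 and 9.10 in replicates 1, 2 and 3. Acta1, the skeletal actin, had 10.06, 9.48 and 8.80. A second probe set of Myl4 was below background, with 7.64, 7.83 and 7.75. Of the 20 muscle markers 10 were above background, and 17 were highest in replicate 1 and 17 lowest in replicate 3. These shares were 49.6% and 36.6% of all genes, and 72.5% and 43.9% of the genes above background. The medians of the markers were 8.40, 7.95 and 7.60, and 14, 8 and 4 of them were above background in replicates 1, 2 and 3. The difference of replicate 1 over replicate 3 had a median of 0.93 over the list and of 0.06 over all genes, and after quantile normalization it was 0.94 over the list. The myogenic factors Myog and Myod1 were below background at 7.90 and 7.33, and Myf5 was at 3.49. In bulk RNA, fewer muscle cells and less RNA per cell cannot be told apart.

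Other genes among the 20 came from many families. Of the 20 genes 11 had several probe sets, and in 3 the second brightest was above background. Snrpd3, a core protein of the splicing complex, had 11.25, 10.41 and 9.76, while its other 2 probe sets were below background, with means of 8.01 and 7.67. Kdelr2, a receptor that returns proteins to the endoplasmic reticulum, had 10.91, 12.39 and 10.84, and its other probe set was flat at 11.41, 11.34 and 11.24. Malat1, a nuclear long noncoding RNA, had 11.07, 10.90 and 9.79, and replicate 3 was the lowest array in 6 of its 7 probe sets. Cul5 had 9.09, 8.48 and 7.69, with another probe set alike at 8.80, 8.30 and 7.73, and the last, below background, at 8.08, 7.83 and 7.93. Steap4, Bex1 and Stmn2 were highest in replicate 1 and lowest in replicate 3, whereas Syp, Shh, Serpina1c, Car7 and F8a were lowest in replicate 1. The other probe sets of Syp, Car7 and F8a were below background, with ranges between 0.22 and 0.40. The probe set of Shh, a hedgehog not known as a cartilage gene, stood at 8.91, 10.14 and 9.93, and its second was at 5.01. Slc39a1, a zinc transporter, was highest in replicate 2 at 10.20. At the other end, 4933407O12Rik, Zfp646, R3hdm1, Cep41, Zcchc24, Boc, Il10rb, Mmp16, Opn3 and Dbn1 had SDs of 0.0059 or less.

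Whether such genes also differ by replicate number where the choice had not used the arrays was tested on the other 12. The limma F test of the replicate number, with treatment in the fit and Benjamini-Hochberg adjustment over 45037 probe sets, called 1129 of them (2.51%) at an adjusted p under 0.05. Of the probe sets read for the 8577 genes above background it called 241 (2.81%). Of the probe sets of all 18193 genes it called 439 (2.41%). Of the 100 genes with the largest SD in DMSO it called 33. In 73 of the 100 the same replicate number was highest in DMSO and in the other arrays, against 69.5% of the genes above background. In 68 of those 100 the other arrays put the replicate numbers in the same order from high to low as the DMSO arrays did, against 41.1% of the genes above background. Leaving out single arrays moved the counts widely. Without SB90 replicate 3 the test called 231 probe sets and 19 of the 100 genes, and without LY replicate 3 it called 2463 and 43. The count was also over 1.5 times lower without LY replicate 1 (391), LY replicate 2 (613), UO126 replicate 1 (385), UO126 replicate 2 (566), UO126 replicate 3 (352) or TSA replicate 2 (640), and over 1.5 times higher without TSA replicate 3 (1828, with 50 of the 100 genes). The labels do not say whether same-numbered arrays of different treatments came from 1 cell preparation.

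Col10a1 was highest in replicate 3 and lowest in replicate 1 under every treatment. The means of the other arrays were 10.22, 10.50 and 11.46 for replicates 1, 2 and 3 (limma F test, adjusted p = 2.45e-06). Of the 18 genes of its list 5 were called (27.8%), against 2.41% of all genes. Beside Col10a1, Panx3, Alpl and Mgp passed with replicate 3 highest (adjusted p = 0.0169, 0.0328 and 0.0419), Tgm2 passed with replicate 2 lowest (adjusted p = 0.0401), and Mmp13 and Ibsp did not pass (adjusted p = 0.208 and 0.404). Of the cartilage collagens Col11a2 and Col9a3 passed, both highest in replicate 3 in DMSO and in the other arrays (adjusted p = 0.00758 and 0.00995), and Col2a1 did not (adjusted p = 0.691). Of the 20 genes of cartilage proteoglycans and other matrix proteins the test called 6 (30%), against 2.41% of all genes. Among the 6 was Snorc, a transmembrane proteoglycan of chondrocytes, named after its values were seen. It had 10.88, 11.15 and 11.37 in DMSO and means of 10.49, 10.68 and 11.18 in the other arrays (adjusted p = 0.000203).

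Of the muscle markers the F test called 12 of 20 (60%), against 2.41% of all genes. Among them were Actc1, Myh3, Tnnc2 and Tnnt1, with adjusted p values of 0.00325, 0.00453, 0.00305 and 0.00682. Replicate 1 was the highest for 17 of the 20 in LY, 15 in UO126 and 19 in SB90, and for 8 in TSA. Over the genes above background it was the highest for 80.5% in LY, 61.4% in UO126, 29.1% in SB90 and 34.3% in TSA. The LY share of the markers, 85%, was thus close to that of the genes above background, to which 10 of the 20 markers belong. In LY the difference of replicate 1 over replicate 3 had a median of 0.79 over the markers and of 0.21 over those genes. In TSA the list as a whole was dim with medians between 6.72 and 6.92. Immediate early genes, which cells switch on within minutes of a stimulus, were above background in 22 of 26 cases in DMSO. The test called 14 of the 26 (53.8%), against 2.41% of all genes. Fos had 10.10, 10.21 and 9.54 in DMSO and means of 11.51, 11.64 and 9.50 in the other arrays (adjusted p = 5.95e-06). Egr1 had 12.15, 12.15 and 11.69, against 12.81, 12.83 and 11.40 (adjusted p = 5.66e-06). In both, replicate 3 was the lowest. In DMSO 11 of the 26 were lowest in replicate 3 (42.3%), close to the 36.6% of all genes, and 21 were in LY, 15 in UO126, 21 in TSA and 21 in SB90. Among genes above background replicate 3 was the lowest for 43.9% in DMSO, 53.3% in LY, 20.2% in UO126, 19.8% in TSA and 25.7% in SB90.

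**Figure D5:**
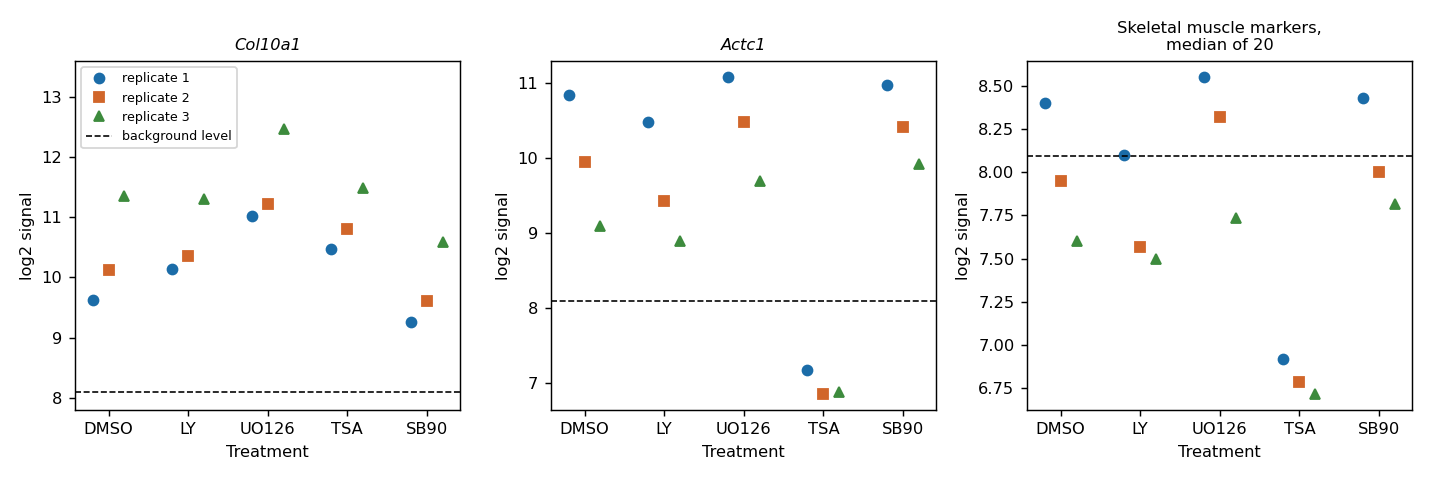
Each symbol is the log2 signal of 1 array, with treatments along the axis from DMSO at left and replicate numbers as symbols, for Col10a1, Actc1 and the median of the 20 skeletal muscle markers, and the dashed line is the background level of 8.09. Col10a1 is highest in replicate 3 in all 5 sets, and the muscle median is highest in replicate 1 in all 5.

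A TATA box fixes the start of transcription in a minority of mouse genes. The letters TATAAA were searched on the transcribed strand between 50 and 11 bases before the start, in RefSeq promoter sequences of build GRCm38.p6, which held 7010 of the 8577 genes above background. They occurred in 102 of these (1.46%), in 5 of the 81 with a sequence among the 100 genes of largest SD (6.17%), in 0 of 79 among the 100 of smallest SD, and in 450 of 14452 measured genes (3.11%). A match is only a run of letters. The share was 4.94% among the 100 highest genes (4 of 81), near that of the genes of largest SD, 2.46% in the highest 10% and 4.68% among genes not above background. The 60 bases that end just before the start of the 5 genes are shown because Col10a1 is among them, with the motif in capitals.
Col10a1 (chr10:34389921-34389980, plus strand): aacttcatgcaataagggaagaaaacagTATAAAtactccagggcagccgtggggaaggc
H2-D1 (chr17:35263034-35263093, plus strand): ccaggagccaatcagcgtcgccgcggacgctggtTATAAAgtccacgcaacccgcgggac
Prss2 (chr6:41521716-41521775, plus strand): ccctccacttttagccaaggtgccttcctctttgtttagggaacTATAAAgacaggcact
Nqo1 (chr8:107403206-107403265, minus strand): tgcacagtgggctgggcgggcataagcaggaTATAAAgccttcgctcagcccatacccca
Sod1 (chr16:90220702-90220761, plus strand): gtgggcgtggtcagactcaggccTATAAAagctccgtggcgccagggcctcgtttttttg
The motif begins 32 bases before the start in Col10a1 and 26, 16, 29 and 37 bases before it in H2-D1, Prss2, Nqo1 and Sod1. SDs of their DMSO signals were 0.89 for Col10a1 and between 0.43 and 0.46 for the others.

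Among other cells that the dissection could have carried along, markers of leukocytes, endothelium and red cells were mostly below background. For skeletal muscle (10 of 20) and joint markers (3 of 6) the share above it was close to the 47.1% of all genes. In all 3 arrays 3 of the 20 muscle and 2 of the 6 joint markers were above it, against 44.9% of all genes. Of the tendon markers 5 of 7 were above it, by their mean and in all 3 arrays. Of 18 macrophage and leukocyte markers 3 were above background, with a median of 7.17. Ptprc, the pan-leukocyte gene, was at 4.84 and C1qb at 5.67, whereas Laptm5 had 9.75, 9.57 and 10.57, Lyz2 a mean of 9.05 and Csf1r of 8.76. Of 12 endothelial markers 2 were above background, Egfl7 and Flt1 at 9.01 and 8.43, and Pecam1, Cdh5 and Vwf were at 5.15, 5.49 and 4.60. Of 10 erythroid markers only Epor was above it, at 8.55, and the globin genes listed lay between 4.53 and 6.49. The median of these lists, 5.87 for endothelium and 6.12 for red cells, was near the 6.11 of the receptor genes.

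Of 10 osteoclast markers Ctsk, at 10.42, and Nfatc1 were above background, and Acp5 and Calcr were not, at 7.76 and 4.26. Of 7 osteoblast and osteocyte markers Ibsp and Ifitm5 passed, at 11.61 and 8.50, while Sost was at 5.25. Of 15 keratinocyte and epithelial markers 4 passed. Epcam led at 10.57, through 1 of its 2 probe sets with the other at 6.73, and Cdh1 and Krt1 were at 4.03 and 5.87. Of 12 neural and Schwann cell markers 4 passed, led by Pmp22 at 11.62 and S100b at 10.37, which cartilage also expresses, and Snap25, Nefm and Nefl were at 3.74, 4.62 and 5.25. Of 7 adipocyte markers Cebpa, Fabp4 and Retn passed at 10.08, 9.97 and 8.19, and Adipoq and Cidec were at 4.95 and 4.46.

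Of 7 tendon markers 5 were above background, among them Tnmd with 10.37, 9.95 and 9.80, Thbs4 with 10.17, 10.12 and 9.56, and Scx, the tendon transcription factor, with 8.13, 8.33 and 8.24. Mkx was below it at 6.93. Of 6 joint and articular markers Prg4 (lubricin), Gdf5 and Erg were above background at 9.34, 8.56 and 8.16, and Osr2, Creb5 and Dcx were not. Xist, the RNA of the inactive X chromosome, had 9.70, 9.63 and 9.91, whereas the Y-linked genes Eif2s3y, Kdm5d and Uty were below background at 7.62, 7.30 and 7.12. Of 32 genes restricted to liver, retina, pancreas or testis 1 was above background.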

How the data were processed

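Total RNA of primary mouse chondrocytes was measured on Affymetrix mouse whole-genome arrays. The authors normalized the arrays and deposited log2 signals, with no counts and no detection calls, so that the number of arrays limits the precision. Their methods name GC-RMA for the deposited arrays and, for the gene set analysis, Robust Multichip Analysis (RMA). Whether GC-RMA or RMA made these values is not settled. If RMA made the values, low signals are compressed and differences near background are understated. Groups came from the sample labels and gene symbols from the platform annotation.

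The table held 45101 probe sets, and 64 control probe sets were removed. Of the rest 34945 had 1 gene symbol (34741 of them matched a RefSeq table), 932 several and 9160 none. A gene was read by its brightest probe set in DMSO. Background was the 95th percentile of 75 chemosensory receptor genes, with the 99th percentile, signals of 50 (the study's minimum) and 100, and 32 tissue-restricted genes as alternatives. Means, SDs, ranks and counts were computed in Python 3.11.15 with pandas 2.3.3. The replicate number was tested over the 12 other arrays with limma 3.58.1 in R 4.3.3 by an F test with treatment as covariate and was tested on simulated data. Other alternatives were median centring of arrays, quantile normalization, averaging a gene's probe sets, leaving out probe sets ending in x_at, a trend and robust prior, and leaving out arrays. The p values set differences between the replicate numbers of the 12 other arrays against the spread left after treatment and replicate number. They do not cover the DMSO arrays.

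The genes named were taken from the markers, the 30 highest, up to 8 highest and up to 4 lowest members of each list, all inhibitor targets and limb position genes, and those of largest and smallest SD. Fos, H2-D1, Myh3, Myog, Nqo1, Prss2, Snorc, Sod1, Tgm2, Tnnc2, Tnnt1 and Tnnt3 were named after their values were seen, and Sox5 and Sox6 as chondrocyte markers. Members and lists were chosen with earlier results of these data known. Some items are not reported here.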

Additional observations from a re-analysis of the deposited data

How the results depend on the processing

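Col2a1 stayed the highest gene under every alternative run. The number of genes above background was 8577 and became 5524 with the 99th percentile of the receptor genes as background, 15857 with a signal of 50 and 13210 with a signal of 100, and leaving out 1 DMSO array gave between 8081 and 8966. Genes with a range of at least 1 numbered 27, and 14, 52 and 46 with those backgrounds and 15 with a gene's probe sets averaged. Without 1 DMSO array they numbered between 6 and 22, and the median SD was between 0.0639 and 0.144. Without replicate 3 Col10a1 ranked 439th by SD, and without replicate 1 it ranked 3rd and 5 of the 20 genes of largest SD stayed among the 20. Sox9 averaged 9.17 with the mean of its probe sets. Of 38 cartilage matrix genes 35 were above background, and 31 to 37 under the alternatives. Leaving out 1 of the 12 other arrays gave between 231 and 2463 probe sets called and between 19 and 50 of the 100 most variable genes. With quantile normalization 770 probe sets and 26 genes were called, and 17 of the 20 genes of largest SD were shared. With probe sets ending in x_at left out, 24 of the 30 highest genes stayed, and with averaged probe sets 14. No paired analysis was possible because no treatment was compared with another, and the replicate number was itself the factor tested.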

Other observations

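Imprinted genes, which are expressed from the copy of 1 parent and many of which regulate fetal growth, were looked up after the signal ranking had been seen, so that their counts are a description of genes picked afterwards, with no test. Of 19 such genes 16 were above background, 10 in the highest 10% and 5 among the 100 highest genes, with a median of 11.67 against 7.92 over all genes. Beside Igf2 and Cdkn1c, Plagl1 had 13.75, 13.54 and 13.50 in replicates 1, 2 and 3, Mest had 13.51, 13.37 and 13.36, and Dlk1 had 13.25, 13.18 and 13.12. Grb10, Peg3, Ndn and Meg3 had means of 12.99, 12.94, 12.10 and 11.67, whereas Nnat was below background at 7.10.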
